A study of Drosophila melanogaster with 3 samples.

Results

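The strong ZLD sites present at every stage are 675 places on the chromosome arms 2L, 2R, 3L and 3R of Drosophila melanogaster where a peak of ZLD binding was called at each of the 3 stages studied. They were chosen by their deposited peak heights, which had to be 500 or more in every one of the 3 peak lists. Peak height is coverage in normalised reads, that is, extended reads over a base per 10000000 mapped reads of the library. The sites were found by joining peak intervals of the 3 lists whose midpoints lay within 150 bp of each other. This gave 16200 sites over the whole genome. A further 3718 of them, on the same arms, also had a peak in every list but fell below the height of 500 in at least 1, and are called weaker sites here. Because the heights of all 3 stages chose the strong sites, their levels and the ratios between stages are descriptions, with no test.

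ZLD (Zelda) is a zinc-finger transcription factor that the mother loads into the egg. It recognises the short TAGteam elements, with CAGGTAG as the best known form, and many of the first genes that the Drosophila embryo transcribes depend on it. It is also known for keeping its target enhancers and promoters accessible to the patterning factors that act on them later.

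Chromatin came from hand-sorted wild-type Oregon R embryos of mitotic cycles 8 to 9 (cycle 8), of cycles 13 to 14 (cycle 13) and of late cycle 14, with no mutation or treatment in any group. Since sorting went by what was visible under the microscope, a stage name stands for a narrow span of cycles. The antibody was raised against a part of ZLD that holds the zinc fingers and was then depleted of antibodies that bind the fingers. The question was where ZLD sits before, at the onset of and during the main wave of zygotic transcription.

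Each stage had 1 library, so no difference between stages has a replicate check, and intervals given below cover error in counting reads or sites only. In stage order, the libraries held 13496488, 18870755 and 17481411 mapped reads, from 3.7, 6.6 and 6 µg of chromatin. The cycle 8 library stood apart in its copies: distinct read positions made up 23.4% of its reads, against 50.9% for cycle 13 and 41.0% for late cycle 14. Whether these differences in chromatin and copies shape the ratios between stages cannot be told apart from stage.

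The strong sites were few but took a large share of the reads. They made up 64.3% of the 1050 peaks at or above 500 on these arms in the cycle 8 list, 46.8% of the 1442 in the cycle 13 list and 45.3% of the 1490 in the late cycle 14 list. Reads near their centres amounted to 16.6% of the cycle 8 library, 19.6% of the cycle 13 library and 20.2% of the late cycle 14 library. The 3718 weaker sites together took 12.0%, 17.3% and 17.8% in the same order of stages. The strong sites were spread over all 4 arms, with 170 on 2L, 157 on 2R, 158 on 3L and 190 on 3R. These are 5.57%, 4.89%, 4.88% and 4.71% of all sites on each arm.

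Coverage at the site centre, the position of highest pooled coverage, had a median of 1268 normalised reads at cycle 8 (range 444.6 to 11370). The median was 1828 for cycle 13 (560.1 to 11041) and 1920 for late cycle 14 (444.5 to 10555). These medians are 285, 431 and 480 times the median coverage over the same arms. Weaker sites had medians of 164.5, 245.9 and 193.9 at the same stages. Both sets had their lowest median at cycle 8, and the strong sites had their highest at late cycle 14. The read copies behind these values were high: at the median strong site each distinct read position was counted 7.61 times in the cycle 8 library, 11.8 times in that of cycle 13 and 11.4 times in that of late cycle 14. At most 300 distinct positions and strands can cover 1 base. The median strong site held 227, 298 and 295 of these in stage order, so in the later libraries distinct reads could no longer measure its level.

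**Figure D1:**
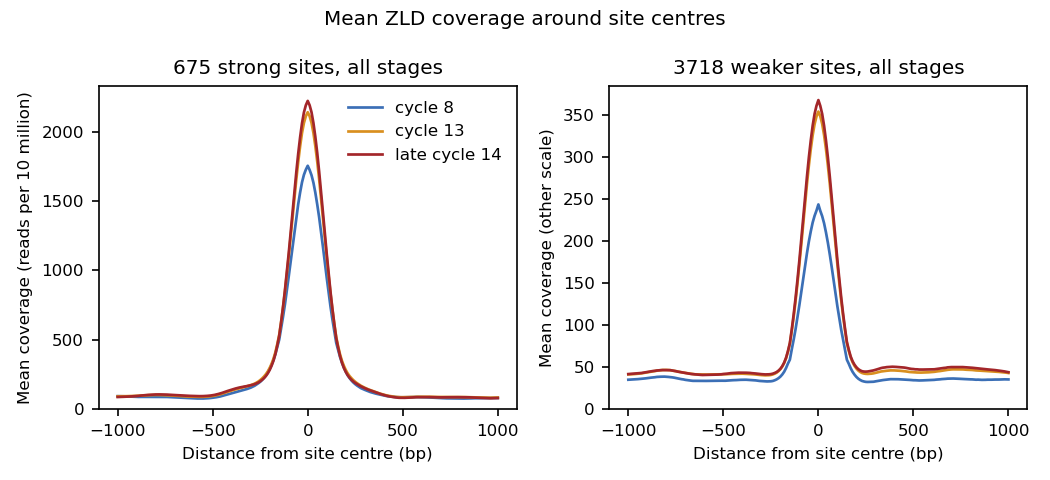
Mean ZLD coverage (y axis, normalised reads, a different scale in each panel) by distance from the site centre (x axis, bp), for the 675 strong sites (left) and the 3718 weaker sites (right), with 1 line per stage. At the strong sites the mean at the centre was 1756 (cycle 8), 2142 (cycle 13) and 2224 (late cycle 14), and by 500 bp it was 83.5, 90.2 and 90.6.

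The sites with the highest mean coverage included a pair in the same neighbourhood, that of CG9300 on 3L. The first, centred at chr3L 19549978 (dm3, as are all coordinates here) and labelled intergenic, had 11370 normalised reads at cycle 8 (95% Poisson interval 11191 to 11552). At the later stages it had 11041 (10892 to 11192, cycle 13) and 10555 (10404 to 10709, late cycle 14). Where 3 coverage values follow each other below, they run in stage order, with cycle 8 first and late cycle 14 last. It was the highest strong site at each stage and, as scaled here, changed little between them. The second, at 19555523, had 8265, 6523 and 5766 and was highest at cycle 8.

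The site with the second highest mean lay in an intron of Taf4, which encodes a subunit of the general transcription factor TFIID, at chr3L 16107310. It had 9683 (9518 to 9851), 7357 (7236 to 7481) and 5138 (5032 to 5245) normalised reads. Its late-to-early log2 ratio, that is late cycle 14 over cycle 8, was -0.91. The level was lower at each later stage. At the promoter of dpn (deadpan, a bHLH repressor of neural stem cells), at chr2R 4119940, coverage went the other way, with 6537, 7224 and 7768.

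Other sites in the top 8 also ended higher at late cycle 14 than at cycle 8. An intronic site of srp (serpent, a GATA factor of endoderm and blood), at chr3R 11815180, had 5669, 7029 and 7733 normalised reads. The 5′ UTR site of ato (atonal, a proneural bHLH factor), at chr3R 4103676, had 5005, 6121 and 6823. A promoter site of btsz (bitesize, a synaptotagmin-like protein), at chr3R 10643728, had 5484, 6382 and 6092. An intronic site of Ten-m (a teneurin, a cell surface protein), at chr3L 22396121, had 4602, 6784 and 6546. All of these were lowest at cycle 8. As scaled here, those of btsz and Ten-m were highest at cycle 13, with log2 ratios of late cycle 14 over cycle 13 of -0.07 and -0.05. Scaling by the median of ratios over all sites moves this ratio by 0.39 and turns both positive. Scaling to reads away from peaks moves it by 0.06 and turns that of Ten-m.

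Between late cycle 14 and cycle 8, 466 of the 675 strong sites were higher at late cycle 14, and the median log2 ratio was 0.44 (quartiles -0.18 and 1.06, range -3.02 to 2.66). With 2-fold as the call, 186 strong sites (27.6%) were higher and 42 (6.22%) lower, while over all 16200 sites 34.3% were higher and 39.7% lower. Most strong sites, 447, stayed within 2-fold. Scaled instead to reads away from peaks, 284 strong sites were higher by 2-fold, against 6382 of all sites, so neither share sets the strong sites apart in the higher direction. The median over the weaker sites was 0.32 and over all sites -0.19. The rule asked for a strong peak at both stages, so it kept out sites that appear or vanish.

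With 1 read per position and strand this median was -0.84, but that setting cannot give its direction. Each library was then scaled to its own distinct positions, 3160282 at cycle 8 and 7165640 at late cycle 14. A site at the limit of 300 in both libraries is thus fixed near -1.18, the ratio of the first CG9300 site. That limit was reached or nearly so at most strong sites in the later libraries and at fewer at cycle 8. At 90% or more of the possible count were 157 strong sites in the cycle 8 library, 649 in that of cycle 13 and 591 in that of late cycle 14. Other scalings of the libraries moved all late-to-early log2 ratios by 0.20 (median of ratios over all sites) or 0.38 (reads away from peaks), so a ratio near 0 has no fixed sign.

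**Figure D2:**
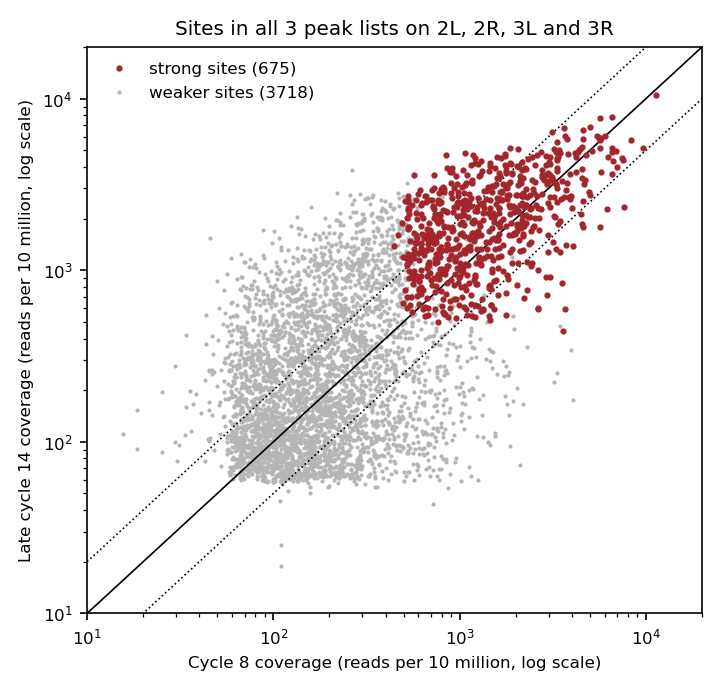
Coverage at the site centre at late cycle 14 (y axis) against cycle 8 (x axis), both in normalised reads on log scales, for the 675 strong sites (red) and the 3718 weaker sites (grey). The solid line marks equal coverage and the dotted lines a 2-fold difference: 186 strong sites lie on or above the upper dotted line and 42 on or below the lower one.

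As scaled here, most of the difference fell before cycle 13. At the first step, cycle 13 over cycle 8, 508 strong sites were higher at cycle 13, the median log2 ratio was 0.39, and 122 (18.1%) were higher and 3 (0.444%) lower by 2-fold, against 32.1% and 26.3% of all sites. Between late cycle 14 and cycle 13 the median was 0.07. No strong site was higher by 2-fold at late cycle 14 and 18 (2.67%) were lower, against 4.04% and 25.7% of all sites, so 97.3% of the strong sites stayed within 2-fold over this step. The other scalings moved these ratios by -0.20 and 0.31 for cycle 13 over cycle 8 and by 0.39 and 0.06 for late cycle 14 over cycle 13. With median of ratios scaling the order of the steps turned, with medians of 0.19 for the first and 0.46 for the second, so which step was larger depends on the scaling.

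Over the 3 stages, 344 strong sites (51.0%) rose at each step, 123 (18.2%) fell at each step, 164 were highest at cycle 13 and 44 lowest there. Rising sites numbered 391 with median of ratios scaling, where 81 fell throughout, and 410 when scaled to reads away from peaks, where 49 did. With median of ratios scaling 35 were highest at cycle 13 and 168 lowest there. Scaled to reads away from peaks, the counts were 197 and 19, so which of these classes was larger depends on the scaling. Coverage at all 3 stages lay within 1.5-fold at 256 strong sites (37.9%), against 18.7% of the weaker sites and 9.24% of all sites. With median of ratios scaling the shares were 31.9%, 22.3% and 10.7%. Scaled to reads away from peaks they were 25.5%, 15.0% and 8.07%. The rule set a floor at every stage for the strong sites only, so this difference is no independent result. Rank order was kept best between the later stages: Spearman's rho over the 675 sites was 0.89 between late cycle 14 and cycle 13, 0.75 between cycle 13 and cycle 8 and 0.49 between late cycle 14 and cycle 8. The sites share libraries, so rho is a description. Of the 100 highest sites of a stage, 79 were shared by late cycle 14 and cycle 13, 53 by late cycle 14 and cycle 8, and 52 by all 3 stages.

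The largest rise was in an intron of CG32306 (Svil in RefSeq), at chr3L 2438864. Coverage there was 571 (532 to 613), 2394 (2325 to 2465) and 3605 (3517 to 3695) normalised reads, and the late-to-early log2 ratio was 2.66. An intronic site of l(3)L1231 at chr3R 10478245 had 844, 3298 and 4712, and its log2 ratio was 2.48. Both were below the median strong site at cycle 8 and above it at the later stages.

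A promoter site of grn (grain, a GATA factor), at chr3R 4007437, had 525, 1771 and 2726 normalised reads, a log2 ratio of 2.38. A 5′ UTR site of Psc (Posterior sex combs, a Polycomb group protein), at chr2R 8868248, had 724, 2811 and 3605, a log2 ratio of 2.32. In all 4 of these rises the larger step came before cycle 13, under the other scalings too.

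The largest fall was in the coding sequence of CG31086, at chr3R 22010246, with 3603 (3503 to 3706), 1873 (1812 to 1936) and 444 (414 to 477) normalised reads and a log2 ratio of -3.02. An intergenic site near CG31016 at chr3R 26442122 had 3672, 1757 and 597, a log2 ratio of -2.62. A coding site of CG9247 (Nbr in RefSeq, the exonuclease Nibbler that trims small RNAs) at chr2L 21161649 had 2644, 1883 and 597, a log2 ratio of -2.15. A coding site of CG13919 at chr3L 1646080 had 2647, 2055 and 603, a log2 ratio of -2.13. In each of these falls the larger step came after cycle 13, the reverse of the rises, except that with median of ratios scaling the steps at CG31016 were -1.26 and then -1.16. Of these 4 sites, 3 lay in coding sequence.

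At the other end, some sites barely moved as scaled here. The smallest spread over the stages was at a coding site of CG34117, at chr3R 5225104, with 4745, 4658 and 4712 normalised reads. An intergenic site near Or22b (an odorant receptor gene), at chr2L 1525380, had 2589, 2605 and 2705. An intronic site of CG1074 at chr3R 260199 had 1114, 1111 and 1071. These even sites thus ranged widely in level. Their log2 ranges over the stages were 0.03, 0.06 and 0.06. The other scalings moved late cycle 14 over cycle 8 by more, 0.20 and 0.38. These sites are therefore even only as scaled here, and another scaling could pick other sites.

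**Figure D3:**
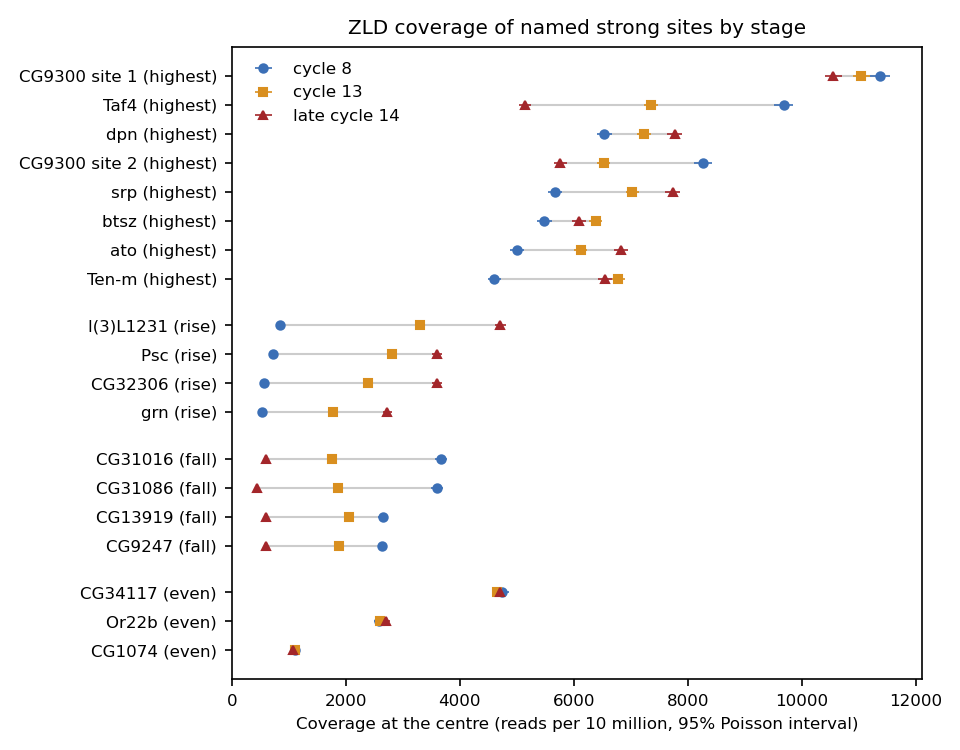
Coverage at the centre of the highest sites, the largest rises, the largest falls and the sites most even as scaled here (x axis, normalised reads, with 95% Poisson intervals) by stage, named by the nearest gene. The 4 rises had 2726 to 4712 at late cycle 14, against 525 to 844 at cycle 8, and the 4 falls 444 to 603, against 2644 to 3672.

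The study's peak tables labelled 674 of the 675 sites by their place in or near a gene. Introns held 232 (34.4%), intergenic sequence 191 (28.3%), promoters 133 (19.7%), coding sequence 95 (14.1%), 5′ UTRs 17 and 3′ UTRs 6. Promoter sites were the strongest at cycle 8, with a median of 1778 normalised reads, and had 2351 and 2335 later. Intronic sites had medians of 1178, 1853 and 2045, and intergenic sites of 1077, 1694 and 1807.

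Coding sites had medians of 1457, 1623 and 1255. As scaled here, these too rose at the first step. Among the 6 labels, only the coding median was lower at late cycle 14 than at cycle 8 with this scaling. At late cycle 14, 42 of the 95 coding sites were higher than at cycle 8, with 14 up and 15 down by 2-fold and a median log2 ratio of -0.11. Of the 232 intronic sites, 182 were higher, with 77 up and 5 down and a median of 0.65. Intergenic sites had 60 up and 11 down (median 0.45), and promoter sites 27 up and 9 down (median 0.32). The 2-fold falls were thus found most at coding sites, which held 15 of the 42. Labels were not compared over the weaker sites or all sites, so whether this is particular to the strong sites was not tested. The paper reports that ZLD peaks in general shifted from coding regions to promoters over these stages. It compared where the peaks called at each stage lay, which is another measure than coverage at a fixed set of sites. Among the strong sites, promoter sites had a lower median ratio than intronic and intergenic sites. The median of the coding sites was positive under either other scaling, at 0.09 (median of ratios) and 0.27 (reads away from peaks), while it remained the lowest of the 6 labels under both.

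**Figure D4:**
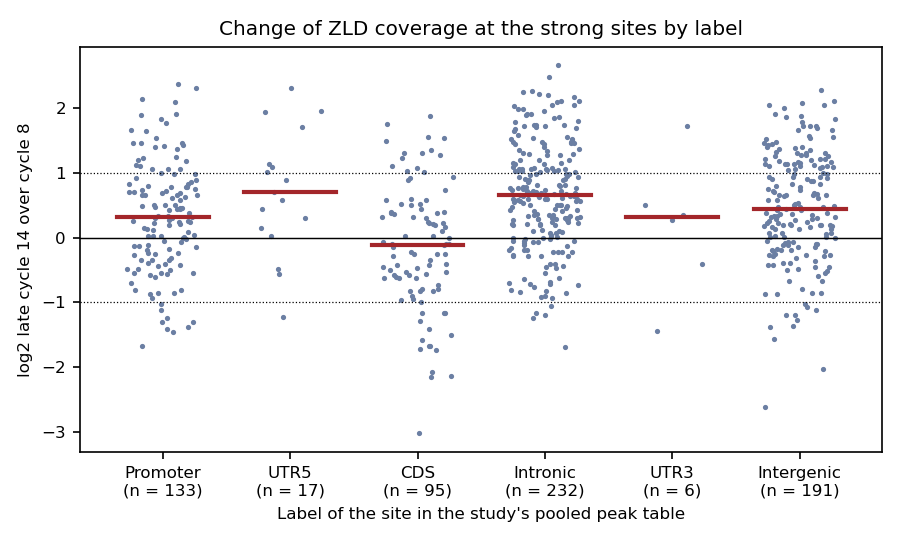
Log2 ratio of coverage at late cycle 14 to cycle 8 (y axis) for the 674 labelled strong sites, 1 point per site, by label (x axis), with the median of each label as a red bar, 0 as a solid line and 2-fold as dotted lines. Medians run from -0.11 at the 95 coding sites to 0.70 at the 17 sites in 5′ UTRs.

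The nearest genes of the strong sites numbered 536, and 104 of them had more than 1 strong site. Gap, pair-rule, segment polarity and homeotic genes form the cascade that divides the embryo from head to tail, dorsoventral genes divide it from back to belly, and cellularization genes build the membranes between nuclei. For each list, the counts below are strong sites nearest a list gene, and the ratio is the late-to-early one. They read against 27.6% higher and 6.22% lower by 2-fold over all strong sites.

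The gap list was drawn broadly: hb, Kr, kni, knrl, tll, hkb, cad, ems, croc, fkh, pdm2 and nub. Of these 12 genes, 9 had 16 strong sites, of which 2 were higher and 1 lower by 2-fold. The median log2 ratio was -0.01 and turned positive under both other scalings. The highest was an intergenic site of tll (tailless, a nuclear receptor of the embryo's ends), at chr3R 26675739, with 4556, 2859 and 3460 normalised reads. An intergenic site of kni (knirps, an abdominal repressor), at chr3L 20690514, had 4468, 3400 and 2129, the 2-fold fall of the list. The promoter of hb (hunchback, the anterior gap factor), at chr3R 4520372, stayed level as scaled here, with 2376, 2388 and 2273. Both 2-fold rises were at promoters, of hkb (huckebein), with 1159, 2659 and 3354 at chr3R 172427, and of Kr (Kruppel), with 683, 1495 and 1880 at chr2R 21113944. The stronger intergenic site of hkb, at chr3R 174211, had 2112, 2929 and 3321.

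The pair-rule list held eve, h, ftz, odd, prd, slp1, slp2, opa, sob and drm. It carried 24 strong sites at 9 of 10 genes, 3 of them higher and 2 lower by 2-fold, with a median log2 ratio of 0.13. The highest was the promoter site of h (hairy, a bHLH repressor), at chr3L 8668749, with 4618, 6236 and 5835 normalised reads. That of ftz (fushi tarazu, a homeodomain factor), at chr3R 2689824, had 3934, 3992 and 3626, and an intergenic site of prd (paired), at chr2L 12081160, had 3012, 3260 and 3320. Another intergenic site, of odd (odd skipped, a zinc-finger repressor) at chr2L 3610832, had 3037, 3114 and 2657. All of these changed by less than 2-fold.

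Of all nearest genes, ftz had the most strong sites, 5, and eve, a homeodomain pair-rule gene, had 4. The 4 sites of eve lay within 3234 bp and, as scaled here, were all lower at late cycle 14. The intergenic site at chr2R 5865793 had 2930, 1885 and 718 normalised reads, a log2 ratio of -2.03. The promoter site at 5866742 had 1482, 1235 and 628, a log2 ratio of -1.24. The others, at 5865146 and 5868380, had ratios of -0.29 and -0.55. The first of these is smaller than the shift of 0.38 under scaling to reads away from peaks, so its sign depends on the scaling. The ftz sites, by contrast, were higher at late cycle 14 at 4 of 5, up to 1.99 at chr3R 2714752, where coverage was 534, 1763 and 2127. The remaining ftz site, at -0.12, turned positive under both other scalings.

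Segment polarity genes, which act after the pair-rule genes, had only 3 strong sites, at 2 of the 9 list genes on these arms. All 3 were higher by 2-fold. They were the intronic site of ptc (patched, the Hedgehog receptor), at chr2R 4543630, with 1154, 2505 and 2652 normalised reads, and a pair at nkd (naked cuticle, a Wnt inhibitor). The 5′ UTR site of nkd, at chr3L 19037702, had 1115, 2168 and 2455, and its intronic site, at 19035935, had 719, 1972 and 2361.

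Homeotic genes had 7 strong sites at 3 of 8 genes, all higher at late cycle 14 and none by 2-fold, with a median log2 ratio of 0.60. A coding site of abd-A (abdominal-A), at chr3R 12651999, had 2900, 4415 and 4131 normalised reads. An intergenic site of Dfd (Deformed), at chr3R 2643928, had 2779, 3146 and 3591. The only site of Ubx (Ultrabithorax) was intronic, at chr3R 12526656, with 1331, 2317 and 2427.

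The dorsoventral genes had 25 strong sites at 15 of 20 genes, 10 of them higher and 2 lower by 2-fold, with a median log2 ratio of 0.51. The highest was an intergenic site of SoxN (a Sox factor of the neural ectoderm), at chr2L 8832515, with 4946, 3078 and 2845 normalised reads. The promoter sites of tld and zen were nearly level as scaled here. That of tld (tolloid, a protease that frees the ligand Dpp), at chr3R 20575104, had 3757, 3360 and 3203. That of zen (zerknullt, a dorsal homeodomain factor), at chr3R 2579975, had 3202, 3408 and 3307. For the promoter of sim (single-minded, the midline regulator), at chr3R 8898021, the values were 2163, 2845 and 4280.

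Sites of one dorsoventral gene could move apart. The other SoxN sites, at chr2L 8841927 and 8810063, had 1861, 3721 and 5184, and 1303, 3169 and 4309 normalised reads, so the gene held both a site highest at cycle 8 and a pair highest at late cycle 14. All 3 sites of pnr (pannier, a dorsal GATA factor) were higher by 2-fold, led by its promoter site at chr3R 11860036 with 525, 1809 and 2232. The lower calls of this list were an intergenic site of sna (snail, the mesodermal repressor), at chr2L 15480038, with 3155, 1626 and 1456, and one of zen2, at chr3R 2570513, with 4569, 2154 and 1776.

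Each gene of the cellularization list had 1 strong site (5 sites for 6 names, since frs and Z600 name 1 gene), of which 1 was higher at late cycle 14 and 1 lower by 2-fold, with a median log2 ratio of -0.39, of -0.19 and -0.01 under the other scalings. At its promoter site, bnk (bottleneck, which times the closing of the cells) had 7000, 4453 and 3991 normalised reads at chr3R 27018971. The site that ended higher was at the promoter of halo (which controls lipid droplet transport), at chr2L 1518237, with 2717, 3607 and 4901. The promoter site of Sry-alpha, at chr3R 25866867, was also highest at cycle 8, with 3046, 2352 and 2325. That of Z600, a mitotic inhibitor, at chr3L 15501985, had 2268, 1987 and 2085. It was highest at cycle 8 as scaled here, but its log2 ratio of -0.12 turned positive under both other scalings. The site of slam, which directs membrane growth, lay in its 5′ UTR at chr2L 6373397 and had 2987, 2051 and 1278.

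Neural precursor genes had 9 strong sites at 5 of 8 genes, 4 higher and 1 lower by 2-fold, with a median log2 ratio of 0.78. Of its genes, 2 are also in the dorsoventral list, SoxN among them, so the lists are not separate counts. Beside the dpn promoter site already described, dpn had an intergenic site 1204 bp away, at chr2R 4121144, with 4055, 2350 and 1379 normalised reads, a log2 ratio of -1.56. So the pair at dpn moved in opposite directions. A promoter site of esg (escargot, a Snail family factor), at chr2L 15333580, had 2160, 1935 and 1952, and the intronic site of pros (prospero, a homeodomain factor of neural daughters), at chr3R 7204598, had 690, 1158 and 1680.

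The place of highest coverage was compared between stages within bounds that the method set. Peaks were joined within 150 bp, and each stage summit was sought within 150 bp of the site centre. Summits far apart could therefore not be found. The distance between the outermost of the 3 stage summits had a median of 12 bp at the strong sites and 20 bp at the weaker sites. It was 25 bp or less at 555 of the 675 strong sites (82.2%, exact Clopper-Pearson 95% interval 79.1 to 85.0), against 62.4% of the weaker sites (60.8 to 63.9). These intervals take each site as an independent draw and are no test between the sets. More reads place a summit more finely, and the strong sites have more, so the part of depth in this difference was not tested. Reads on the plus and minus strands were offset by 121, 116 and 122 bp in stage order at the strong sites, and by 121, 116 and 120 bp at the weaker sites.

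**Figure D5:**
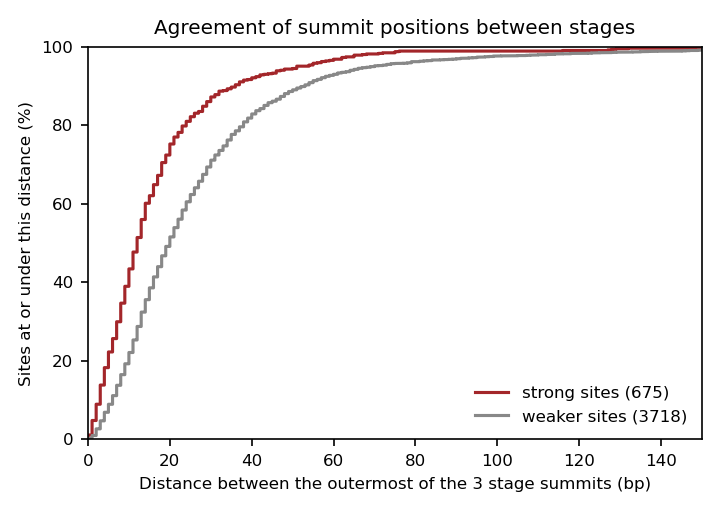
Share of sites (y axis, %) whose 3 stage summits lie within a given distance (x axis, bp), for the 675 strong sites (red) and the 3718 weaker sites (grey). At 25 bp the strong sites reach 82.2% and the weaker sites 62.4%, and at 50 bp 94.5% and 89.1%.

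Each read was extended to 150 bp, which puts a floor under the width of a coverage peak. The widths are thus no measure of how narrow the binding itself was. The pooled width at 50% of the summit had a median of 199 bp (quartiles 186 and 229.5), against 190 bp at the weaker sites. By stage, in order, the strong sites had medians of 204, 198 and 196 bp. Widths over 300 bp were found at 62 strong sites (9.19%), against 6.19% of the weaker sites. The widest, 600 bp, was an intronic site of dpp (decapentaplegic, the dorsal BMP ligand), at chr2L 2456604, with 1654, 1678 and 1920 normalised reads. The narrowest, 159 bp, was an intronic site of jbug (jitterbug, an actin-binding protein), at chr2R 18615968, with 1050, 1828 and 1579.

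Another strong site lay within 5000 bp of 224 strong sites (33.2%), so most had none that near, and the median distance to the nearest was 17892 bp. Of the 122 pairs of adjacent strong sites within 5000 bp, 27 (22.1%) had late-to-early ratios that differed by 2-fold or more. In 2 pairs the sites moved by 2-fold in opposite directions, and both pairs share 1 site near Tom, a Bearded family gene of Notch signalling. The site, at chr3L 14959414, had 1772, 1225 and 738 normalised reads. Its neighbours at 14958092 and 14961189 had 1097, 1987 and 2286, and 1037, 1801 and 2233.

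Genes with 4 strong sites also differed in whether the sites moved together. All 4 intronic sites of Egfr (the EGF receptor), over 22542 bp on 2R, were higher at late cycle 14, with log2 ratios of 0.41 to 0.99, and so were the 4 of hth (homothorax, a homeodomain cofactor of the homeotic proteins), with 0.29 to 1.80. At opa (odd paired, a zinc-finger factor) the ratios ran from -0.80 to 1.08 within 8076 bp. The intergenic site of opa at chr3R 674772 had 1628, 2925 and 3437 normalised reads and the intronic site at 680110 had 1917, 1547 and 1098.

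The bound of 500 cut through a continuous range of heights. The lowest of the 3 list heights was that of cycle 8 at 434 strong sites, that of cycle 13 at 50 and that of late cycle 14 at 191. Just inside it was a coding site of Mo25 at chr3L 16624502, with heights of 500.19, 1214 and 1751 in stage order. Next came a coding site of CG11601 at chr2L 284050, with 792.1, 935.9 and 500.56. Just outside were an intergenic site near Gr59d at chr2R 18998002, with heights of 498.37, 719.6 and 530.4, and one near CG13898 at chr3L 788943, with 702.7, 757.4 and 498.16. Sites on either side of the bound were alike in height.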

How the data were processed

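ZLD ChIP-seq was analysed from 1 library per stage. Per the study's methods, the authors mapped reads to dm3 with Bowtie (version 0.12.5 in the submitters' processing notes), extended them to 150 bp, scaled each library to 10000000 reads and called peaks in each library separately with Grizzly Peak. The deposited peak lists hold intervals with a height, in the unit of a coverage signal, and the deposited read files give 1 position and strand per mapped read. Input libraries were not used here. The authors' peak tables in the supplement were used only for labels and nearest genes, and only a part of their rows was used.

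Coverage was computed from all reads, copies included, in Python 3.11.15 with scipy 1.17.1 and numpy 2.4.6, and figures were drawn with matplotlib 3.10.9. As centre, each site took the base with most pooled coverage within its intervals, a choice made after the files had been seen. Extended reads over that base, scaled to 10000000, gave its value, and read numbers under 3 were set to 3 in ratios. Coverage has exact Poisson and shares have exact Clopper-Pearson intervals at 95%. With 1 library per stage there was no test between stages. The functions were tested on simulated data.

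The members and gene lists were chosen with earlier results of these data known. Named were the 8 sites with the highest mean coverage, the 4 largest rises and 4 largest falls by late cycle 14 over cycle 8, the 3 most even, the 2 just inside and 2 just outside the bound, the widest and narrowest, and the highest site of each list gene, at most 4 per list. In the neural precursor list, 1 such site, whose gene had no entry of its own in the RefSeq table, is given in counts only. Further sites, at eve, ftz, SoxN, pnr, sna, zen2, slam, nkd, pros, dpn, Tom, Egfr, hth, opa, Kr and hkb, were named after their values were seen. RefSeq symbols matched 515 of the 536 nearest genes.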

Additional observations from a re-analysis of the deposited data

How the results depend on the processing

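The number of strong sites was 1042 with a height bound of 300 and 346 with 1000, and between 590 and 696 with other ways of joining peaks. For late cycle 14 over cycle 8, the median log2 ratio was -0.84 with 1 read per position and strand, 0.63 with median of ratios scaling and 0.82 when scaled to reads away from peaks. For cycle 13 over cycle 8 the same settings gave -1.22, 0.19 and 0.70, and for late cycle 14 over cycle 13 they gave 0.42, 0.46 and 0.13. With 1 read per position and strand, 0 strong sites were higher and 222 lower by 2-fold at late cycle 14 than at cycle 8. These ratios were scaled to the distinct positions of each library, which were more in the later libraries. Counts of distinct reads cannot pass 300 at a base, which by construction holds down the later, deeper libraries. The falls under this setting therefore cannot be read as lower coverage. Scaled to reads away from peaks, 284 were higher and 20 lower, and with median of ratios scaling 227 and 30. Peak heights and reads over 300 bp gave medians of 0.40 and 0.34 for late cycle 14 over cycle 8. For cycle 13 over cycle 8 they gave 0.36 and 0.34, and for late cycle 14 over cycle 13 they gave 0.06 and 0.05. Both settings kept the counts within 1.5 times. The 3 summits lay within 50 bp at 94.5% of strong sites, and within 25 bp at 61.2% with 1 read per position and strand. Another strong site lay within 2000 bp of 20.7% and within 10000 bp of 43.0%. The median width was 294 bp at 25% of the summit and 333 bp at 50% with 1 read per position and strand, where the limit of 300 flattens the summit. The share labelled promoter stayed within 1 percentage point with other labels. No paired analysis was possible because each stage had 1 library, and no replicate could be left out. The count of CAGGTAG near the site centres was not run, as the dm3 sequence was not used here. Counting intervals of the named sites take no account of copies, so they are too narrow as a limit on differences between stages.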
